A study of Mus musculus with 8 samples.

Results

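The cholesterol and fatty acid synthesis genes of polarized intestinal epithelial cells (IECs) were followed after stimulation with IFN-λ2 or IFN-β. The set held 33 genes, chosen as named members of these pathways and found by the gene name that the scanner data give to each probe. The choice was made with earlier results of these data known, so shares of members beside those of all gene names are descriptive. They were read by 45 probes of the 39429 on the array, and all 45 were among the 25972 probes tested, which carry 20834 gene names. Of the 33 genes, 17 belong to sterol synthesis, 5 to the control of the SREBP transcription factors, 5 to sterol transport, esterification and oxysterol formation, and 6 to fatty acid synthesis. Sc4mol is the older name of Msmo1, and Acat2 is the cytosolic acetyl-CoA acetyltransferase.

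The cells are an immortalized mouse IEC line grown on transwell inserts for 21 days to obtain a polarized layer, with a change of medium every 3 days. Cells were left untreated (control, 2 arrays, replicates 2 and 3), were given 20 ng/mL IFN-λ2 for 9 h (3 arrays, replicates 1 to 3) or were given 500 U/mL IFN-β for 9 h (3 arrays, replicates 1 to 3). By the study's methods the line comes from a mouse that carries a firefly luciferase transgene driven by the Mx2 promoter, so the cells of every group hold it. The doses of the cytokines are in different units, so the comparison between them is one of these doses at 9 h. Nothing in the labels says that replicates came from separate cultures, so p-values measure the spread between these samples, which may be technical.

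Cells build cholesterol from acetyl-CoA through mevalonate, farnesyl diphosphate, squalene and lanosterol, and most of the enzymes of this route are under the control of SREBP-2. SREBP proteins are held in the endoplasmic reticulum by SCAP and the INSIG proteins while sterols are plentiful, and travel to the Golgi to be released as active transcription factors when sterols fall. Fatty acid synthesis also starts from cytosolic acetyl-CoA, passes through acetyl-CoA carboxylase and fatty acid synthase, and ends with elongases and desaturases that set chain length and unsaturation, partly under SREBP-1c and the liver X receptors. In the intestinal epithelium these routes supply membrane, cholesteryl ester and triglyceride for lipoprotein assembly.

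Upstream sequences are shown for 4 members, to look for letters that such control may share. Shared control of the 33 genes was not tested. They are the 250 bases before the RefSeq start in GRCm38.p6, written 5′ to 3′ on the strand of the gene. Insig1 and Elovl6 were lower with IFN-λ2 in both of its comparisons and kept the call between the cytokines under every setting tried, Mvd was one of the 3 sterol enzymes called lower with IFN-λ2, and Hmgcs1 was the member whose window holds the sterol response element searched. Capitals mark matches on either strand to CCAAT (the CCAAT box, ATTGG on the other strand), CACGTG (the E-box) and TCACNCCAC (the sterol response element).
Insig1, chr5:28071162-28071411, plus strand: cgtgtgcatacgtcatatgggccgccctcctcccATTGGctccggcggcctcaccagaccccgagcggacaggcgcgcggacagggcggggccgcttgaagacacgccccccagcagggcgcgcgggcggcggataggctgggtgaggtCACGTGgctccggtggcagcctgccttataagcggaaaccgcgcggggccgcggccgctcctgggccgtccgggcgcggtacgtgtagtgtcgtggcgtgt
Elovl6, chr3:129532136-129532385, plus strand: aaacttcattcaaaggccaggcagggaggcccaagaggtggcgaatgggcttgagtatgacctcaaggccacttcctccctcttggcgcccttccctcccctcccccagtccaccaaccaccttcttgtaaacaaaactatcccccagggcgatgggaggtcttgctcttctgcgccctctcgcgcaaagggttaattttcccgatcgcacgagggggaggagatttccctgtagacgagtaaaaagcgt
Hmgcs1, chr13:119690101-119690350, plus strand: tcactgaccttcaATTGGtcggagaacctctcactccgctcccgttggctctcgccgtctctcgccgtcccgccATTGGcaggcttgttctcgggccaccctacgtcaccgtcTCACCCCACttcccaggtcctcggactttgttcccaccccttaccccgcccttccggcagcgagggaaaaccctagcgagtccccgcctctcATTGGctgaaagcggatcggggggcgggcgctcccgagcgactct
Mvd, chr8:122443423-122443672, minus strand: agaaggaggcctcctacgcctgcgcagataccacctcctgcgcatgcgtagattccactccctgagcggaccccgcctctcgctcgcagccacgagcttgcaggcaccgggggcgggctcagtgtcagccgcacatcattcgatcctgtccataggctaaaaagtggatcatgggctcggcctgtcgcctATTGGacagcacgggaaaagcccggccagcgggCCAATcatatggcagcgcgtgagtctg
Windows of 300 bases, from 250 before to 50 after the start, were at hand for 26 of the 33 genes, with 34 windows in all. No window was at hand for Stard4, Fdft1, Scd1, Abcg1, Fdps, Sqle and Scd2. CCAAT was found on either strand in 20 of the 26 genes, in 61.8% of the members' windows and in 37.4% of the 32851 windows of all genes. TCACNCCAC was found in 1 of the 26 genes, Hmgcs1, in 2.94% of the members' windows and in 1.24% of all windows. CACGTG was found in 5 genes, Abca1, Dhcr7, Hsd17b7, Insig1 and Scap, in 17.6% of the members' windows and in 7.15% of all windows. The interferon-stimulated response element, searched as GAAA, any 2 bases and GAAA again, was found in 1 member, Ebp, in 2.94% of the members' windows and in 3.44% of all windows. A match describes letters in these windows and not binding, and an exact search misses variants of these letters.

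Total RNA was read on 1-colour arrays, and signals are given in normalized units, in which the 75th percentile of every array is 1500 units and the floor is 15 units. Between 20991 and 24252 probes per array were well above background, and no feature was saturated. The labelled cell type was checked on 8 epithelial markers. Epcam, Cdh1, Krt8, Krt18, Krt19, Cldn7 and Tjp1 read above 4000 units on every array, whereas the brush-border gene Vil1 read 40.3 to 67.9 units. Of the leukocyte, endothelial and fibroblast markers, Cdh5, Col3a1 and Pdgfra were at or close to the floor on every array, and Itgam was bright by 1 of its 3 probes, with 5874 and 8370 units in control, 2115 to 3706 units with IFN-λ2 and 2721 to 10736 units with IFN-β. Kdr read 757 to 955 units by 1 probe, and by the other rose with IFN-λ2 by 1.65 on the log2 scale (limma adjusted p = 0.00478). Ptprc, Cd68, Pecam1 and Col1a1 read 66.7 units at most and Cd3e 137 to 189 units. The interferon response genes Mx2, Ifit1, Isg15, Usp18 and Irf7 rose with both cytokines by 3.31 to 4.45 on the log2 scale. Krt19 rose with IFN-λ2 by 0.41 on the log2 scale and Cdh1 by 0.44, a call of Cdh1 that was lost with the replicate block (adjusted p = 0.0766). Against IFN-β, Krt19 was higher with IFN-λ2 by 0.58 (limma adjusted p = 0.00552) and Kdr by its dimmer probe by 1.55 (limma adjusted p = 0.00596). Cdh1 differed there by 0.22 and was not called (limma adjusted p = 0.2). The part of Krt19, Cdh1, Kdr and Itgam in the lower lipid gene signals was not tested. Every slide carried one array of each group in the same slide position, apart from the slide of replicate 1, which holds no control array here, so position and stimulus cannot be told apart. In bulk samples, fewer cells of a type and less RNA per cell cannot be told apart.

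After IFN-λ2, 8 of the 33 genes fell against control and none rose (limma, Benjamini-Hochberg adjusted p over all probes under 0.05, the brightest probe of a gene). This is 24.2% of the members, against 8.42% of all gene names called lower and 10.3% called higher in the same comparison. As the members were chosen with earlier results of these data known, this share describes the list and is no test of it. The 8 genes were Scd2, Elovl6 and Scd1 of fatty acid modification, Acat2, Mvd and Nsdhl of sterol synthesis, the SREBP retention factor Insig1 and the sterol carrier Stard4. The median log2 change of the members was -0.25, and that of all gene names was 0.0063. No member reached a change of 2-fold with the adjusted p, where 1.2% of gene names were called lower and 2.78% higher. The same held with IFN-β (0.0336% lower and 0.898% higher over all gene names) and between the cytokines (0.835% and 1.51%). After IFN-β no member was called higher or lower in the same fit, against 1.49% of all gene names called higher and 0.197% called lower. At an unadjusted p under 0.05, 4 members were lower with IFN-β and 2 higher, where 4.68% and 7.2% of gene names were. Their median log2 change with IFN-β was 0.013, and that of all gene names 0.024. In the direct comparison, 4 genes were lower after IFN-λ2 than after IFN-β and none higher, 12.1% of the members against 5.97% of gene names called lower and 5.74% called higher. The 2 comparisons with control share the same 2 control arrays.

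**Figure D1:**
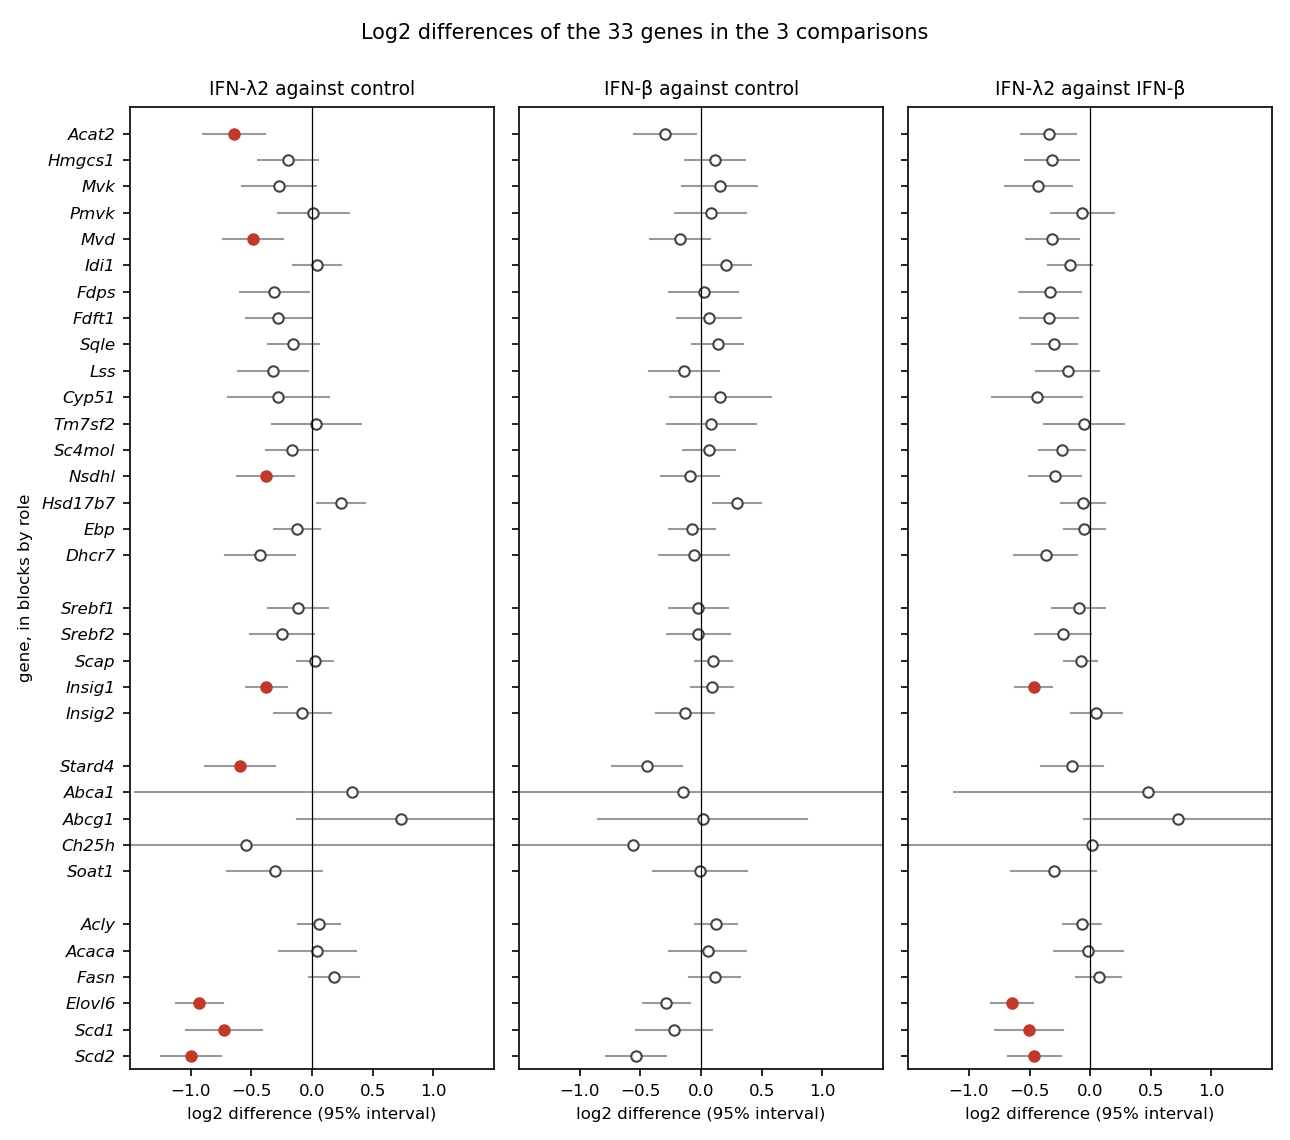
Log2 difference of each of the 33 genes (x axis) in the 3 comparisons, with 95% intervals from the limma fit and genes in blocks by role. Filled red points are the genes called at an adjusted p under 0.05, 8 for IFN-λ2 against control, none for IFN-β against control and 4 for IFN-λ2 against IFN-β, and the intervals of Abca1, Abcg1 and Ch25h run beyond the axis in at least 1 panel.

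The largest falls among the members were in the last steps of fatty acid synthesis. Scd2, a stearoyl-CoA desaturase that makes monounsaturated fatty acids, read 35628 and 32062 units in control. It read 15725, 16743 and 18365 units with IFN-λ2 and 21395, 23906 and 24693 units with IFN-β. The 3 groups did not overlap, with control highest and IFN-λ2 lowest. Scd2 fell with IFN-λ2 by 0.999 on the log2 scale (SE 0.10, 95% interval -1.24 to -0.75, limma adjusted p = 0.00117). It was also lower than with IFN-β, with a difference of -0.46 (SE 0.09, limma adjusted p = 0.0224). This call was kept under 11 of the 13 settings and with 4 of the 8 arrays left out, being lost without IFN-λ2 replicate 1 or 2 or IFN-β replicate 2 or 3. With IFN-β the log2 difference to control was -0.54 (SE 0.10, limma adjusted p = 0.0679), which did not pass, although Scd2 did pass under 3 of the 13 alternative settings. The probe lies at chr19:44381024-44381083 in mm9, the build of the scanner data.

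Elovl6, the elongase that lengthens palmitate to stearate, read 3271 and 3305 units in control. It read 1691, 1842 and 1656 units with IFN-λ2 and 2559, 2860 and 2680 units with IFN-β. Again no 2 groups overlapped, and the control arrays differed by little from each other. Elovl6 fell with IFN-λ2 by 0.93 on the log2 scale (SE 0.08, limma adjusted p = 0.00056), to 52.5% of control, and the difference between the cytokines was -0.64 (SE 0.07, limma adjusted p = 0.00267). Within slides the difference between the cytokines was -0.60, -0.63 and -0.69. The log2 difference of IFN-β to control was -0.29 (95% interval -0.48 to -0.09, limma adjusted p = 0.212). Both calls of Elovl6 remained under all 13 alternative settings and with each of the 8 arrays left out. The probe lies at chr3:129341248-129341307.

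Scd1, the second desaturase of the set, read 1397 and 1678 units in control, and 923, 965 and 888 units with IFN-λ2. With IFN-β it read 1531, 1246 and 1184 units, a range that overlaps control and lies above all 3 arrays with IFN-λ2. Scd1 fell with IFN-λ2 by 0.73 on the log2 scale (SE 0.13, limma adjusted p = 0.0116), to 60.4% of control, a call kept under 12 of the 13 settings and lost without control replicate 3. The difference between the cytokines was -0.50 (SE 0.12, limma adjusted p = 0.0395), and it was not called with the replicate number as a block (adjusted p = 0.0763) or when any 1 of the 6 stimulated arrays was left out (highest adjusted p = 0.124). Within slides it was -0.73, -0.37 and -0.42. The probe lies at chr19:44469387-44469446, on the same chromosome as that of Scd2.

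The earlier enzymes of fatty acid synthesis did not pass the test in any comparison. Acly, which supplies cytosolic acetyl-CoA, read 27859 to 29408 units in control, 29307 to 30257 units with IFN-λ2 and 29968 to 33092 units with IFN-β. By its other probe Acly differed from control by -0.29 with IFN-λ2 (limma adjusted p = 0.113). Acaca, the acetyl-CoA carboxylase, differed from control by 0.042 with IFN-λ2 (95% interval -0.28 to 0.36). Fasn, the fatty acid synthase, read 949 and 945 units in control and 1038, 1065 and 1120 units with IFN-λ2, a log2 difference of 0.18 (95% interval -0.03 to 0.39, limma adjusted p = 0.202). By the brightest probes, the intervals of Acly, Acaca and Fasn lie above those of Scd2, Elovl6 and Scd1 in the comparison of IFN-λ2 with control, though no test of the difference between genes was made.

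**Figure D2:**
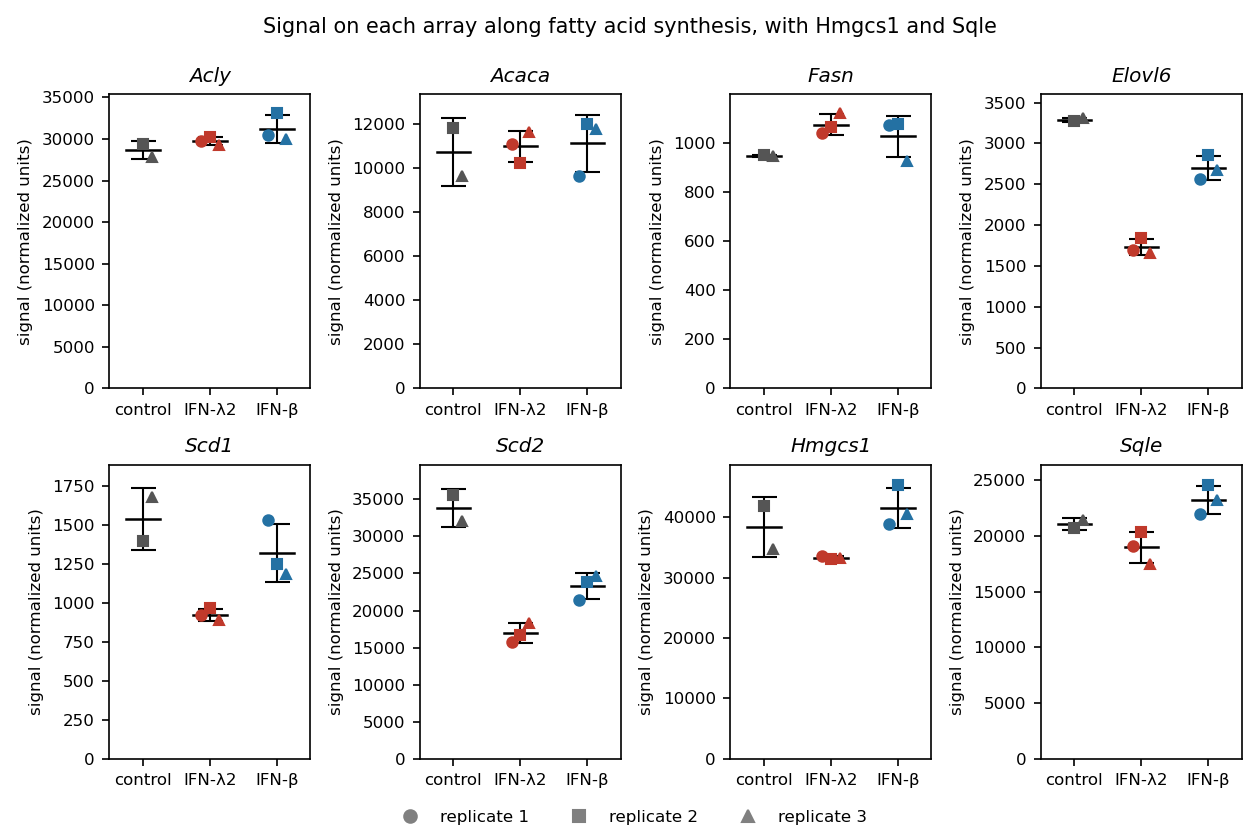
Signal in normalized units (y axis, from 0) on each array for the 6 fatty acid synthesis genes and for Hmgcs1 and Sqle of sterol synthesis, with the group mean as a line and the SD as bars (control n = 2, IFN-λ2 n = 3, IFN-β n = 3) and the symbol giving the replicate number. Elovl6, Scd1 and Scd2 with IFN-λ2 lie below control and IFN-β on every array, while Acaca overlaps between all groups and Acly overlaps between IFN-λ2 and each of the others.

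In sterol synthesis, 3 of 17 genes fell with IFN-λ2 (17.6%, against 8.42% of all gene names) and none rose. Over the 13 alternative settings the count ran from 0, with normexp (2.65% of all gene names) and by an equal-variance test without moderation (2.53%), to 7 with quantile normalization (9.92%), which added Hmgcs1, Mvk, Fdps and Sc4mol. The median log2 change over the 17 genes was -0.27, with a range from -0.64 to 0.24. In 13 of the 17 genes every array with IFN-λ2 lay below both control arrays, 76.5% against 24.7% of all gene names, and in 1 gene every array lay above, against 25.4%. Only 2 control arrays stand behind these values, which limits the precision of each gene.

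Acat2, which joins acetyl-CoA units at the entry of the route, read 122 and 132 units in control. It read 75.2, 90.8 and 78.4 units with IFN-λ2 and 97.1, 101 and 111 units with IFN-β. The groups did not overlap, and IFN-β lay between the others. Acat2 fell with IFN-λ2 by 0.64 on the log2 scale (SE 0.11, limma adjusted p = 0.00836), to 64.1% of control. With background correction by normexp the change was -0.27 and was not called (adjusted p = 0.21), and the call was also lost without control replicate 3 and by the test without moderation. The probe lies at chr17:13136482-13136541.

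Mvd, the mevalonate diphosphate decarboxylase, read 6221 and 6100 units in control and 4000, 4895 and 4343 units with IFN-λ2, and fell by 0.49 on the log2 scale (SE 0.10, limma adjusted p = 0.0202). With IFN-β it read 5345, 5870 and 5181 units. The call of Mvd was kept under 11 of the 13 settings and with 4 of the 8 arrays left out. It was lost without either control array, without IFN-λ2 replicate 1 or 3, with normexp and by the test without moderation (highest adjusted p = 0.112). Nsdhl, a sterol dehydrogenase that removes methyl groups after lanosterol, read 446 and 516 units in control, 348, 396 and 361 units with IFN-λ2 and 479, 431 and 441 units with IFN-β. Nsdhl fell with IFN-λ2 by 0.38 (SE 0.10, limma adjusted p = 0.0395), and this call was lost with the replicate block (adjusted p = 0.0994). It was kept under 8 of the 13 settings and with 3 of the 8 arrays left out, being lost without IFN-λ2 replicate 1 or 3, IFN-β replicate 2 or 3 or control replicate 3. By its other, dimmer probe Nsdhl differed from control by -0.21 (adjusted p = 0.167).

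The other 14 genes of the route did not pass the test against control. Dhcr7, the last enzyme of the route, stood just outside it with a log2 difference of -0.43 to control (SE 0.12, limma adjusted p = 0.0518). Lss, which closes lanosterol, differed by -0.32 (limma adjusted p = 0.115) and Fdps, which makes farnesyl diphosphate, by -0.31 (limma adjusted p = 0.122). Fdft1, the squalene synthase, differed by -0.28, and Mvk, the mevalonate kinase, by -0.27. Hmgcs1, the cytosolic HMG-CoA synthase, differed by -0.20 and Sqle, the squalene epoxidase, by -0.16. Hmgcs1 read 33104 to 33536 units with IFN-λ2, below both control arrays at 34808 and 41889 units. Pmvk, Idi1 and Tm7sf2 lay at 0.011, 0.042 and 0.036. Hsd17b7, a ketosteroid reductase of the late steps, lay at 0.24 and was higher on every array with either cytokine than in control, but was not called (limma adjusted p = 0.0984 with IFN-λ2 and 0.211 with IFN-β). By its other probe Hsd17b7 lay at -0.048 with IFN-λ2 and 0.035 with IFN-β (adjusted p = 0.889 and 0.97).

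Between the cytokines, all 17 sterol synthesis genes had a lower mean with IFN-λ2, while none was called, where 5.97% of all gene names were. Under 7 of the 13 alternative settings the count was also 0. It was 5 with a mean-dependent variance prior (Hmgcs1, Mvk, Mvd, Fdft1 and Sqle, against 6.95% of all gene names), 3 with quantile normalization (Hmgcs1, Mvk and Sc4mol, against 6.1%), 2 with the mean of a gene's probes (against 6.28%) and 2 with only probes well above background (against 8.13%). It was 1, which is 5.88% of the 17 genes, with only the groups compared (against 5.53%) and by the test without moderation (against 3.19%). The median log2 difference was -0.29, and -0.018 over all gene names, with a range from -0.44 for Cyp51 to -0.047 for Ebp. In 12 of the 17 genes the 3 arrays with IFN-λ2 lay below all 3 with IFN-β, 70.6% against 16.5% of all gene names. At an unadjusted p under 0.05, 11 of the 17 were lower, where 14.0% of gene names were. The smallest adjusted p was 0.0609, for Mvk, followed by 0.061 for Sqle. By its dimmer probe, Mvk was called with a log2 difference of -0.48 (limma adjusted p = 0.0249), as was Nsdhl with -0.35 (adjusted p = 0.0439). Within the slides of replicates 1, 2 and 3, 16, 15 and 16 of the 17 genes were lower with IFN-λ2, with medians of -0.27, -0.19 and -0.29, and 13 genes were lower on all 3 slides. Against control, the median with IFN-β was 0.066, with 11 genes above 0 and 6 below.

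**Figure D3:**
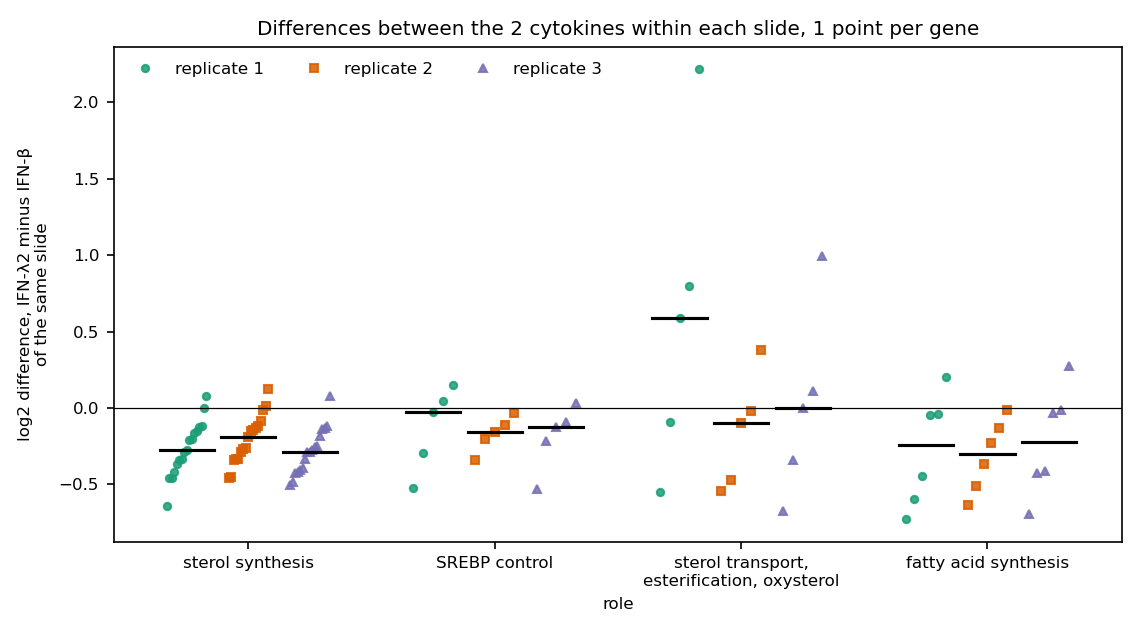
Within-slide log2 differences, IFN-λ2 minus IFN-β on 1 slide (y axis) for each gene, grouped by role (x axis), with 1 colour and symbol per replicate number and a line at each median. The sterol synthesis medians are -0.27, -0.19 and -0.29, and the high point of replicate 1 in the transport group is Abca1 at 2.22.

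Among the 5 genes of SREBP control, Insig1 was called in both comparisons of IFN-λ2. Insig1, itself a target of SREBP that keeps the SCAP and SREBP complex in the endoplasmic reticulum, read 803 and 813 units in control. It read 617, 659 and 593 units with IFN-λ2 and 886, 836 and 856 units with IFN-β. All arrays with IFN-λ2 lay below the other 5 arrays, and all with IFN-β lay above control. Insig1 fell with IFN-λ2 by 0.38 on the log2 scale against control (SE 0.07, limma adjusted p = 0.0144) and was lower than with IFN-β by -0.47 (SE 0.07, limma adjusted p = 0.00618). The second call remained under all 13 alternative settings and with each of the 8 arrays left out, and the first under 11 of 13 and with 5 of 8, being lost without IFN-λ2 replicate 1 or either control array. With IFN-β the difference to control was 0.089 (95% interval -0.083 to 0.26). The promoter of Insig1 printed above is the one of these 4 with an E-box.

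The other control genes did not pass in any comparison of the main fit. Among the alternative settings, Srebf2 was called lower than with IFN-β by the test without moderation. Insig2 was called lower than control with the mean of a gene's probes. Srebf2, which encodes SREBP-2, read 1422 and 1834 units in control and 1329, 1377 and 1380 units with IFN-λ2, a log2 difference of -0.25 (limma adjusted p = 0.173). Srebf1, which encodes SREBP-1, differed by -0.12 and Scap by 0.024. Scap read 22232 to 24679 units over the 8 arrays. Insig2, the second INSIG gene, differed by -0.081 by its brighter probe and by -0.37 by the other (adjusted p = 0.055). By that other probe it read 782 and 923 units in control, 622 to 690 units with IFN-λ2 and 589 to 696 units with IFN-β. Both cytokine groups thus lay below control by this probe.

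Of the genes that move, store or oxidize cholesterol, Stard4 fell with IFN-λ2. Stard4, a cytosolic sterol carrier under SREBP-2 control, read 2135 and 2401 units in control, 1635, 1602 and 1285 units with IFN-λ2 and 1742, 1622 and 1626 units with IFN-β. Both cytokine groups lay below control and overlapped each other. Stard4 fell with IFN-λ2 by 0.60 on the log2 scale (SE 0.12, limma adjusted p = 0.0176), to 66.2% of control, and the difference with IFN-β was -0.45 (SE 0.12, limma adjusted p = 0.194). The second probe of Stard4, dimmer at 329 to 438 units, differed by -0.037 with IFN-λ2 (adjusted p = 0.876), so the fall rests on 1 of 2 probes. By the brighter probe the call was kept under 10 of the 13 settings and was lost without control replicate 3.

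Abca1, Ch25h and Soat1 were not well above background on every array, and no gene of this group but Stard4 was called. Abca1, the cholesterol efflux pump, read 18.7 to 36.0 units on 7 arrays and 135 units with IFN-λ2 in replicate 1. Abcg1, its partner in efflux to lipoproteins, read 53.7 and 68.3 units in control, 134, 61.6 and 124 units with IFN-λ2 and 77.3, 47.4 and 62.1 units with IFN-β. Its groups overlapped, with a log2 difference of 0.74 to control (95% interval -0.13 to 1.60, limma adjusted p = 0.208), and it was called higher in both comparisons of IFN-λ2 when IFN-λ2 replicate 2 was left out. Ch25h, the cholesterol 25-hydroxylase known as an interferon-stimulated gene in macrophages, was at the floor on 4 of 8 arrays and at 21.9 to 89.7 units on the others, and was well above background on 1 array of each group. Soat1, which esterifies cholesterol, read 17.4 to 25.9 units. It was called lower in both comparisons of IFN-λ2 when IFN-λ2 replicate 3 was left out.

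**Figure D4:**
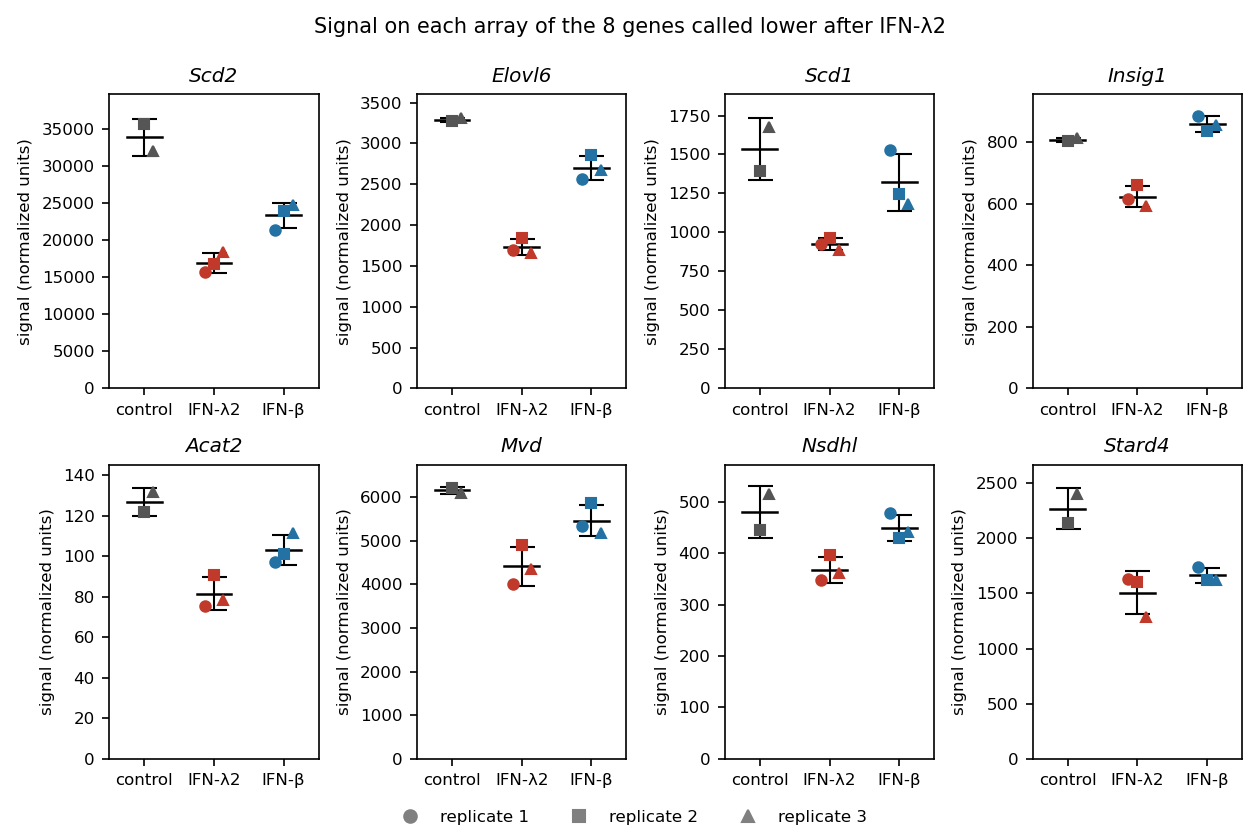
Signal in normalized units (y axis, from 0) on each array for the 8 genes called lower with IFN-λ2 against control, with the group mean as a line, the SD as bars (control n = 2, IFN-λ2 n = 3, IFN-β n = 3) and the symbol giving the replicate number. In all 8 panels the arrays with IFN-λ2 lie below both control arrays, and in Stard4 they overlap those with IFN-β.

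The count of 8 changed when single arrays were left out, as did the share of all gene names called lower. Without control replicate 3 it was 3 (Dhcr7, Elovl6 and Scd2), and the share of all gene names called lower went from 8.42% to 4.98%. Without IFN-λ2 replicate 1 it was 5 (Acat2, Stard4, Elovl6, Scd1 and Scd2), and that share was 4.43%. The count of 4 between the cytokines was 2 (Insig1 and Elovl6) without IFN-λ2 replicate 1, IFN-β replicate 2 or IFN-β replicate 3, with 2.73%, 5.89% and 3.18% of all gene names called lower, against 5.97% with all arrays. Without IFN-λ2 replicate 2 it was 4, of which 2 (Insig1 and Elovl6) were among the original 4, with 3.77% of all gene names.

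A further 53 genes of the same pathways were read as a list, of which 47 had a tested probe. With IFN-λ2, 3 of the 47 rose (6.38%) and 1 fell (2.13%) against control, smaller shares than the 10.3% and 8.42% of all gene names. None was called higher or lower with IFN-β (limma), where 1.49% and 0.197% of gene names were. At an unadjusted p under 0.05 there were 3 higher and 3 lower. Between the cytokines 2 were higher and 1 lower with IFN-λ2, or 4.26% and 2.13% against 5.74% and 5.97% of gene names. Soat2, which makes cholesteryl ester in enterocytes, was the gene named by the rule of a change of at least 2-fold. It read 200 and 194 units in control, 377, 368 and 298 units with IFN-λ2 and 154, 148 and 147 units with IFN-β. The arrays with IFN-λ2 were the highest and those with IFN-β the lowest, without overlap. Soat2 rose with IFN-λ2 by 0.81 on the log2 scale (SE 0.11, limma adjusted p = 0.00371) and was higher than with IFN-β by 1.21 (SE 0.10, limma adjusted p = 0.000853).

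The other genes of this list that passed were named after their values were seen. Dgat2, which makes triglyceride from diacylglycerol, read 2904 and 2296 units in control and 4373, 4249 and 4126 units with IFN-λ2. With IFN-β it read 3476, 3500 and 3079 units, also above both control arrays but not called. Dgat2 rose with IFN-λ2 by 0.72 (SE 0.12, limma adjusted p = 0.00718). Gpam, the first acyltransferase of glycerolipid synthesis, rose with IFN-λ2 by 0.35 against control (limma adjusted p = 0.0182) and was higher than with IFN-β by 0.26 (adjusted p = 0.049), and both calls were lost with the replicate block (adjusted p = 0.0592 and 0.106). The call between the cytokines was also lost with any 1 of the 8 arrays left out, and that against control without IFN-λ2 replicate 1 or 3 or control replicate 3. Fads2, a desaturase of polyunsaturated fatty acids, read 2415 and 2780 units in control, 1659, 1848 and 1659 units with IFN-λ2 and 2281, 1909 and 2027 units with IFN-β. It fell with IFN-λ2 by 0.59 (SE 0.11, limma adjusted p = 0.0121), a call lost without control replicate 3. Npc2, a lysosomal sterol carrier, differed between IFN-λ2 and IFN-β by -0.39 (limma adjusted p = 0.0071), and read 7336 to 7768 units with IFN-λ2, 7839 and 7903 units in control and 9815 to 10112 units with IFN-β. The median change of the 47 genes with IFN-λ2 against control was -0.039 on the log2 scale, where that of the 33 members was -0.25.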

How the data were processed

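Total RNA of an immortalized mouse intestinal epithelial line was labelled with Cy3 and read on 8 one-colour Agilent arrays (control n = 2, IFN-λ2 n = 3, IFN-β n = 3). Per the labels, RNA was isolated with Trizol, whereas the methods name a column kit. The authors extracted features with Agilent Feature Extraction 10.7.3.1. The deposited scanner files hold the background-subtracted processed signal as a linear intensity. The authors' deposited table of intensity is this signal times 1 constant per array, with a minimum of 15. Outlier and flagged features, features with a pixel CV above 0.5 and copies beyond 1.42 times the interquartile range were left out (313 to 424 per array). Copies of a probe were averaged as a geometric mean, each array was scaled to a 75th percentile of 1500 (factors 0.691 to 0.769), a floor of 15 was set and log2 was taken. A probe entered the test where 2 or more arrays exceeded the floor.

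Differences were tested with limma 3.58.1 in R 4.3.3 (3 group means, eBayes) on all 8 arrays, with Benjamini-Hochberg adjustment over 25972 probes. A gene is its brightest probe. The members, lists and tests were chosen with earlier results of these data known. Values on every array and full statistics are given for members called with a change of at least 1.5-fold (5 genes), for other called members in brief, and in the wider list for genes called with at least 2-fold. On simulated data of 25972 probes with 200 shifted by 1 on the log2 scale, the fit recovered 61.5% for IFN-λ2 against control, 63.5% for IFN-β against control and 74.5% between the cytokines. False calls among the other probes were 7, 4 and 9. The simulated noise held no slide effect and the shift exceeded the change of any member, so these rates are not the power for these genes. The replicate number is also the slide and the scan, and arrays of the 2 cytokines with the same number deviated together (correlations 0.178, 0.255 and 0.297), so the numbers pair the arrays. The fit without the block was kept as the main one, as the methods name none. Alternatives were 13 settings, a 2-fold rule and each array left out in turn. The depth of an array is not counted in reads, and the number of arrays limits the precision. The RefSeq accession of each of the 45 member probes led to the member's symbol. Gene starts and upstream bases are from RefSeq in GRCm38.p6, and probe positions from the scanner files in mm9, which were not converted. No protein sequence or genome was used here, and 1 marker gene is not reported here.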

Additional observations from a re-analysis of the deposited data

How the results depend on the processing

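The count of members lower with IFN-λ2 than in control (8, with 8.42% of all gene names) was 3 with normexp background correction (2.65%), 2 by a plain t-test with equal variances (2.53%), 0 under the 2-fold rule (1.2%) and 12 with quantile normalization (9.92%), and ranged from 3 to 9 with 1 array left out (4.43% to 9.06%). The count lower with IFN-λ2 than with IFN-β (4, with 5.97%) was 9 with a mean-dependent variance prior (6.95%), 7 with quantile normalization (6.1%), 2 with normexp (1.69%) and 0 under the 2-fold rule (0.835%), and ranged from 2 to 5 with 1 array left out (2.73% to 5.89%). The count lower with IFN-β than in control (0, with 0.197%) was 1, Scd2, with the mean-dependent prior (0.235%), with only probes well above background (0.312%) and with quantile normalization (0.269%). The counts higher with IFN-λ2 (0 against control and 0 against IFN-β) ranged from 0 to 1 with 1 array left out, the 1 being Abcg1 without IFN-λ2 replicate 2 (8.09% and 4.21%). The log2 difference of Nsdhl with IFN-β against control (-0.092) turned to 0.021 with the mean of the gene's probes and ranged from -0.20 to 0.014 with 1 array left out, the latter without control replicate 3, uncalled throughout. Normexp moved the median of all probes by 0.11 in IFN-λ2 against control and in IFN-λ2 against IFN-β, and by -0.025 in IFN-β against control. The cause of these shifts was not tested. With the replicate block the counts lower were 7 against control (5.75%) and 3 between the cytokines (4.56%), the lost calls among members being those of Nsdhl and Scd1 given above, and the block changed no other call of a member. Of the changes of single genes and the medians, 463 kept direction and call under the settings and 282 with an array left out, while 22 and 25 lost the call. A further 5 and 1 became stronger, and 1 and 1 reversed. Results that were never called are among those kept, so these totals do not give the stability of the calls. Elovl6 and Scd2 against control, and Elovl6 and Insig1 against IFN-β, were called under all 13 settings and with each of the 8 arrays left out. Signals near the floor limit what Abca1, Ch25h and Soat1 can show.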
